A study of Mus musculus with 6 samples.

Results

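The 10 genes described here encode proteins that hold back or carry out apoptosis. They are the anti-apoptotic Bcl2 family genes Bcl2, Bcl2l1 and Mcl1, the effector genes Bax and Bak1, the BH3-only genes Bid and Bbc3, and the inhibitor of apoptosis (IAP) genes Xiap, Birc2 and Birc3. They were taken by gene symbol from a table of 17866 protein-coding genes, and all 10 were found and had enough counts for a test. The table holds 6 bulk RNA-seq libraries of corneal epithelium, separated from the stroma, from C57BL/6 mice at 6 months of age. Of these, 3 carry the genotype label WT and 3 the label Rela-/- (KO). According to the study's methods the mutants were Krt14-Cre; Rela f/f mice, so the deletion of Rela, the gene of the NF-κB subunit RelA, is limited to epithelia that express Krt14 and their descendants. Besides the cornea and limbus this Cre also labels conjunctiva, Meibomian glands, skin, oral mucosa and trachea, and the controls were age-matched.

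In the mitochondrial pathway of apoptosis, Bax and Bak1 proteins open the outer membrane of the mitochondrion, and the released cytochrome c starts a cascade of caspases. Bcl2, Bcl2l1 (Bcl-xL) and Mcl1 hold the effectors back, BH3-only proteins such as Bid and Bbc3 (Puma) relieve that block or act on the effectors, and IAPs act further down, with Xiap binding caspases directly and Birc2 and Birc3 (cIAPs) acting as ubiquitin ligases at TNF receptors. Several of these genes, Birc3 and Bcl2l1 among them, are known NF-κB targets in other cells, and the corneal epithelium sheds and replaces its cells continuously. The comparison below asks how their mRNA levels differed between the genotypes.

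In KO epithelium Bcl2 mRNA fell to 30.0% of its WT level and Xiap mRNA to 54.9%, while Bbc3 rose 4.08-fold and Bax 1.88-fold. The rise of Bax was not called with a correction for a length trend between libraries (log2 fold change 0.28, adjusted p = 0.150, edgeR). Smaller falls were found for Bcl2l1, Bid and Birc2. Mcl1, Bak1 and Birc3 did not pass the test. In total 7 of the 10 genes were called at an adjusted p of 0.05, 2 higher and 5 lower in KO (edgeR quasi-likelihood test, Benjamini-Hochberg adjustment over all genes), beside 62.0% of the 13305 genes tested, 31.8% being higher and 30.2% lower. The share of these genes that differed was thus near that of the transcriptome, and the genes did not move in a common direction, with a median log2 fold change (KO over WT) of -0.19 beside 0.01 for all tested genes. At the study's threshold (adjusted p of 0.001 or less and a fold of at least 2) only Bcl2 was called in this edgeR fit, as lower, beside 19.8% of all genes in either direction and 8.24% in that direction. Bbc3 came close (log2 fold change 2.02, adjusted p = 0.00116, edgeR). It passed these cutoffs with DESeq2 (log2 fold change 2.04, adjusted p = 2.07e-05) and with limma on log2(FPKM + 0.1) (1.73, adjusted p = 4.91e-04). It did not pass them in the other alternative fits. The cutoffs were applied to the fits made here and not to the authors' own p-values.

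Promoter sequences of 3 genes that hold a match to an NF-κB motif are shown first, since the deleted factor binds such motifs, together with that of Bax, which holds a match to a p53 half-site. The sequences are from RefSeq (build GRCm38.p6), whose promoter table matched all 10 genes with 17 start sites. They run 5′ to 3′ on the strand of the gene, lie upstream of 1 of its annotated start sites, and have the matched letters in capitals.
Bbc3, chr7:16309406-16309496, plus strand: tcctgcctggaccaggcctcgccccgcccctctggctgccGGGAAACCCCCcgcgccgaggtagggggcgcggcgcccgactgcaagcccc
Bcl2l1, chr2:152830886-152830967, minus strand: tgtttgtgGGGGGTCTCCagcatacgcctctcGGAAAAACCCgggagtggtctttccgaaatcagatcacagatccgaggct
Mcl1, chr3:95658653-95658720, plus strand: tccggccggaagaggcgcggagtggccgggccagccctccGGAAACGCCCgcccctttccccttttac
Bax, chr7:45467050-45467139, minus strand: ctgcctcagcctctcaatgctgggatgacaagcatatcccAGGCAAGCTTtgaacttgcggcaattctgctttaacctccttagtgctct

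The motifs searched, on both strands, were the NF-κB consensus and a pattern with fixed letters (GGG, any 2 bases, then TTTCC), which can match the same bases. The consensus lies in the promoters of Bbc3, Bcl2l1 and Xiap, in 3 of the 17 windows, and in 8.46% of all 32851 promoter windows of the same length. The fixed pattern lies in those of Bbc3, Bcl2l1 and Mcl1, also in 3 of the 17 windows and in 1.63% of all windows. In Bbc3 matches to both motifs overlap between positions -137 and -127 from the start, and the second capital run of Bcl2l1 and that of Mcl1 match the fixed pattern on the opposite strand. The Xiap match (GGGACCCTCC) lies after the start. The p53 half-site lies in 1 Bax and 1 Birc2 window and in 8.36% of all windows. Of the genes with an NF-κB match, Bbc3 rose, Bcl2l1 and Xiap fell and Mcl1 was not called. These are matches of letters only, and binding was not measured in these libraries.

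The libraries held between 20158404 and 20880347 estimated counts each. Rela itself had 1871, 1844 and 1855 counts in the WT libraries against 318, 223 and 313 in the KO libraries, so 16.5% of the WT level remained. All 7 listed markers of corneal epithelium (Krt12, Pax6 and others) were present in every library and lower in KO, all 6 epidermal and all 5 conjunctival or mucosal markers were higher, and so were all 6 proliferation genes. Of 14 leukocyte markers 12 were tested, of which 11 were higher and Itgam was lower, and without Itgam their summed level was 5.22 to 69.5 CPM (counts scaled to the adjusted library total) in WT and 241 to 666 CPM in KO, with Cd79a at 0 in WT. S100a8 and S100a9 made up most of the KO sum and of the highest WT sum, and the other 11 markers summed to 3.26 to 4.73 CPM in WT and 58.4 to 74.6 CPM in KO. Of 7 stromal markers 5 were tested, 4 higher and Pdgfra lower, and without Pdgfra (10.9 to 15.6 CPM in WT and 1.05 to 1.40 CPM in KO) the summed level was 0.687 to 2.74 CPM in WT and 13.6 to 23.3 CPM in KO, with Lum at 0 in WT. Of 3 endothelial markers Pecam1 was tested and higher, while Kdr and Tek stayed at or under 3 counts. The largest shifts in summed CPM were among the epithelial markers. Those of corneal epithelium summed to 94555 to 97291 CPM in WT and 21896 to 24939 CPM in KO. Epidermal markers summed to 20.5 to 26.2 CPM in WT and 12296 to 25244 CPM in KO. Conjunctival or mucosal markers summed to 1932 to 2958 CPM in WT and 52348 to 66980 CPM in KO. In bulk samples like these, fewer cells of a type and less RNA per cell cannot be told apart, and the part of these cell types in the results below was not tested.

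Levels between genes were compared as FPKM (reads scaled to transcript length and library total). In WT the order of the means was Mcl1, Bcl2l1, Bak1, Xiap, Bax, Birc2, Birc3, Bcl2, Bid and Bbc3, from 64.0 ± 5.25 FPKM for Mcl1 to 0.330 ± 0.108 FPKM for Bbc3 (SD, n = 3). The ranges of 3 libraries overlapped for the neighbours Bcl2l1 and Bak1, Xiap and Bax, Birc2 and Birc3, and Birc3 and Bcl2, and the other neighbours stood apart. In KO the order was Mcl1, Bak1, Bcl2l1, Bax, Birc3, Xiap, Birc2, Bid, Bcl2 and Bbc3, and only Bak1 and Bcl2l1, and Xiap and Birc2, overlapped. Bax thus stood above Xiap without overlap in KO, and Bcl2 below Bid. Over all 6 libraries, 92.0% of the tested genes had a lower mean FPKM than Mcl1 and 13.3% a lower one than Bbc3.

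**Figure D1:**
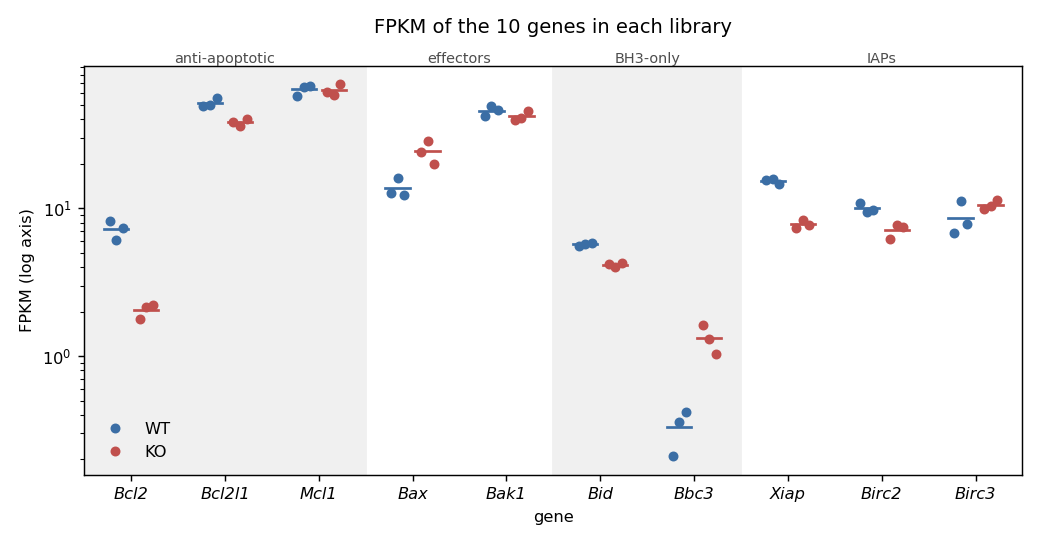
FPKM of the 10 genes (log axis) in each of 3 WT (blue) and 3 KO (red) libraries; points are libraries and short lines the group means, with the genes grouped by role. Bcl2 and Xiap sit lower and Bax and Bbc3 higher in all KO libraries, while the points of Mcl1, Bak1 and Birc3 overlap.

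Bcl2 (gene 12043, chr1:106538178-106714274 in GENCODE, build GRCm38, minus strand) is the founding anti-apoptotic member of the family. It had 1217, 912 and 1120 counts in the WT libraries against 266, 308 and 331 in the KO libraries. Every KO library was thus far below the lowest WT library. Scaled levels averaged 50.4 ± 7.04 CPM for WT and 15.1 ± 1.53 CPM for KO (SD, n = 3 each), and the log2 fold change was -1.73 ± 0.135 (SE, edgeR adjusted p = 1.7e-05). The call held in all 17 alternative fits, with log2 fold changes between -1.84 and -1.43.

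Bcl2l1 (gene 12048, chromosome 2) encodes Bcl-xL, a long-lived guardian of the outer mitochondrial membrane. It had 2591, 2651 and 2974 counts in the WT libraries against 2040, 1878 and 2103 in the KO libraries, again without overlap. The difference was small, from 128 ± 11.7 to 101 ± 5.74 CPM (SD, n = 3 each), and the log2 fold change was -0.34 ± 0.096 (SE, edgeR adjusted p = 0.0140). Without WT replicate 3, the highest library, it was no longer called (log2 fold change -0.25, adjusted p = 0.0654, edgeR).

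Mcl1 (gene 17210, chromosome 3), whose protein turns over quickly, was the most abundant of the 10 mRNAs per length. It had 4208, 4853 and 4945 counts in the WT libraries against 4493, 4162 and 5064 in the KO libraries. The groups overlapped. Its log2 fold change was 0.08 with a 95% interval from -0.18 to 0.34 (adjusted p = 0.577, edgeR), and the sign turned under total-count scaling and on the FPKM scale.

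Per length, Bcl2 made up 4.99% to 7.13% of the summed FPKM of these 3 genes in WT libraries and 1.76% to 2.21% in KO libraries. Mcl1 went from between 50.3% and 54.2% to between 60.4% and 62.0%, and Bcl2l1 from between 40.8% and 42.8% to between 36.0% and 37.7%. The largest relative fall was thus in the least abundant of the 3, and the summed FPKM was 115 to 131 in WT and 97.1 to 111 in KO. FPKM is scaled to the unadjusted library total. The factors that adjust it for CPM were 1.012 to 1.054 in WT and 0.952 to 0.990 in KO. With them the ranges of these sums in WT and KO would overlap, so their separation depends on the scaling.

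**Figure D2:**
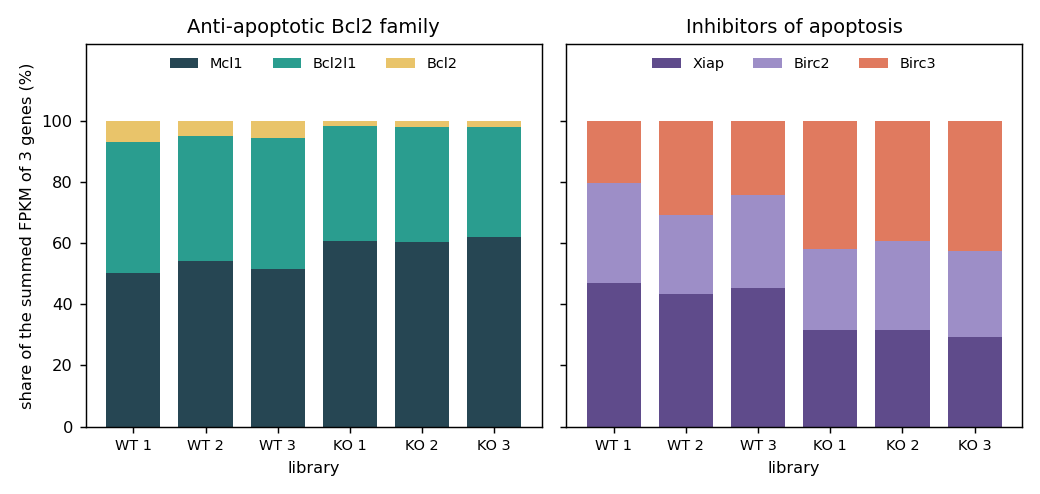
Share (%) of each gene in the summed FPKM of the 3 anti-apoptotic Bcl2 family genes (left) and of the 3 IAP genes (right) in each of the 6 libraries. Bcl2 narrows to at most 2.21% in KO, and Birc3 widens from at most 30.7% in WT to at least 39.4% in KO.

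Of the effectors, Bax was higher in KO and Bak1 was not called. Bax (gene 12028, chr7:45461697-45466898, minus strand) was counted at 226, 282 and 224 reads in the WT libraries against 429, 493 and 354 in the KO libraries. The lowest KO library was above the highest WT library. The level rose from 11.4 ± 1.53 to 21.4 ± 3.56 CPM (SD, n = 3 each), and the log2 fold change was 0.91 ± 0.158 (SE, edgeR adjusted p = 0.00121). Bax is short, with an effective length of 852 bases beside a median of 2841 for all tested genes, and with a correction for a length trend between libraries its log2 fold change was 0.28 and not called (adjusted p = 0.150, edgeR). In addition, 9.89% of the 50-base stretches in its transcripts also occur in the annotated gene Gm45808. Bax counts were whole numbers in every library, so they show no split of reads with another gene. Whether reads of Gm45808 were counted as Bax cannot be told. Counts were not whole for Bcl2, Bcl2l1, Birc2 and Birc3 in 6 libraries, and for Bbc3 and Xiap in 4. Reads of those genes may have been divided with other genes, and the effect on their levels was not tested.

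Bak1 (gene 12018, chromosome 17) had 1732, 2047 and 1929 counts in the WT libraries against 1630, 1641 and 1912 in the KO libraries. The groups overlapped, and the log2 fold change was -0.03 with a 95% interval from -0.27 to 0.21 (adjusted p = 0.809, edgeR). Its sign turned when any of 4 libraries was left out. Per length Bax stood at 0.267 to 0.323 of the Bak1 level in WT libraries and at 0.437 to 0.707 in KO libraries. The ratio of Bcl2 to Bax FPKM was 0.385 to 0.644 in WT and 0.0742 to 0.111 in KO. These ratios are not corrected for the length trend. With that correction, chosen for the ratios after seeing the data, the log2 change of Bcl2 relative to Bax was -1.74 in place of -2.65, and that of Bax relative to Bak1 was 0.37 in place of 0.94.

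The BH3-only genes moved apart. Bbc3 (gene 170770, chr7:16308393-16318205, plus strand) encodes Puma, a potent activator that p53 induces. It had 8.02, 14.7 and 16 counts in the WT libraries against 61.25, 49.96 and 37 in the KO libraries. All KO libraries were above all WT libraries, but the counts were low and the WT level of 0.607 ± 0.211 CPM was poorly defined. The KO level was 2.48 ± 0.623 CPM (SD, n = 3 each) and the log2 fold change 2.02 ± 0.347 (SE, edgeR adjusted p = 0.00116), the largest of the 10 in size. It was called in all 16 alternative fits that kept the gene, but on the log2(FPKM + 1) scale, which understates low genes, the change was 0.80.

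Bid (gene 12122, chromosome 6), which caspase-8 cleaves to link death receptors to mitochondria, had 219, 226 and 231 counts in the WT libraries against 165, 154 and 169 in the KO libraries. The fall was small and even between libraries, from 10.5 ± 0.453 to 8.17 ± 0.385 CPM (SD, n = 3 each). Its log2 fold change was -0.36 ± 0.119 (SE, edgeR adjusted p = 0.0273), but 7 of 17 alternative fits did not call it, with adjusted p-values up to 0.0886. These included DESeq2 (adjusted p = 0.0562) and the fits without WT replicate 1, 2 or 3 or KO replicate 2 or 3.

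By the distance of centred log2 CPM profiles, the genes most like Bbc3 over the 6 libraries were Mef2c, Rasgrp1 and Tfr2, at distances of 0.27, 0.28 and 0.29 with Pearson correlations of 0.990, 0.995 and 0.988. These correlations rest largely on the step between genotypes that the libraries share and are given as a description.

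The IAP genes differed among themselves. Xiap (gene 11798, chrX:42059679-42109656, plus strand), the direct caspase inhibitor, was counted at 2155, 2151 and 2008 reads in the WT libraries against 1024, 1115 and 1075 in the KO libraries. The replicates were close and the groups lay far apart, with 98.0 ± 2.58 CPM in WT and 53.8 ± 2.04 CPM in KO (SD, n = 3 each). The log2 fold change was -0.86 ± 0.080 (SE, edgeR adjusted p = 4.2e-05) and held in all 17 alternative fits.

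Birc2 and Birc3 lie side by side, at chr9:7818227-7837064 and chr9:7848699-7873186 on the minus strand (genes 11797 and 11796), and arose by duplication. Birc2 had 757, 662 and 694 counts in the WT libraries against 451, 546 and 541 in the KO libraries, a log2 fold change of -0.35 ± 0.108 (SE, edgeR adjusted p = 0.0206). The groups did not overlap, but the call did not hold under the length correction or without WT replicate 1 or 3 (adjusted p of 0.129, 0.0828 and 0.0552, edgeR). Birc3, a common NF-κB target, had 383, 613 and 438 counts in the WT libraries against 547, 568 and 628 in the KO libraries. WT replicate 2 reached into the KO range, and the log2 fold change of 0.39 did not pass (95% interval -0.0044 to 0.78, adjusted p = 0.0790, edgeR). Without WT replicate 2 the log2 fold change was 0.61 (adjusted p = 0.00459, edgeR), and with the length correction it was 0.47 (adjusted p = 0.0426, edgeR).

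The estimated counts of Birc2 and Birc3 were not whole numbers in any library, but their sums were, within 0.015, at 1140, 1275 and 1132 in WT and 998, 1114 and 1169 in KO. The program that made the counts had therefore split a set of reads between these 2 genes, so how far each level depends on that split is uncertain. In the annotated transcripts, 1.81% of the 50-base stretches of Birc2 (50 bases being the read length) and 3.20% of those of Birc3 occur in another gene, and all 65 shared stretches of Birc2 are in Birc3. Summed into 1 feature, a choice made after seeing the data, the pair had a log2 fold change of 0.00 ± 0.096 (SE, edgeR adjusted p = 0.974). Birc3 made up 20.5% to 30.7% of the summed FPKM of the 3 IAP genes in WT and 39.4% to 42.6% in KO, while Xiap made up 43.2% to 47.0% and 29.1% to 31.6%.

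**Figure D3:**
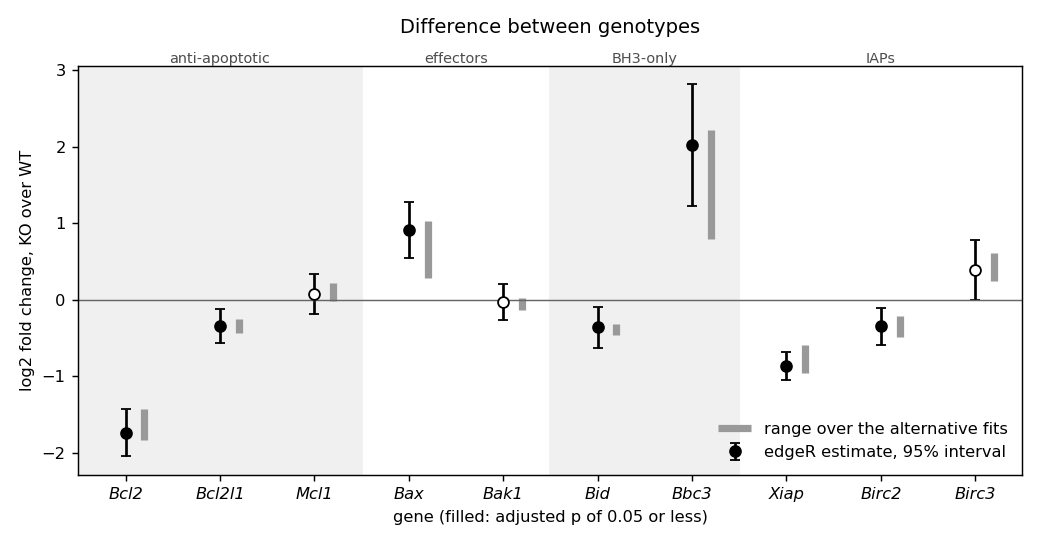
Log2 fold change (KO over WT) of the 10 genes with its 95% interval from edgeR (circles, filled where the adjusted p was 0.05 or less) and, in grey, the range over the alternative fits. The intervals of Bcl2, Xiap, Bax and Bbc3 lie farthest from 0, and the grey range of Bax reaches down to 0.28.

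In all, 7 of the 10 genes had groups that did not overlap, beside 68.6% of all tested genes. The 3 with overlapping groups, Mcl1, Bak1 and Birc3, were those not called. Bcl2, Bbc3 and Xiap were called in every alternative fit that kept the gene.

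Other genes of the pathway were taken from 8 lists of 64 genes. Of these, 63 were in the table and 57 were tested, of which 17 were higher, 18 lower and 22 not called, with a median log2 fold change of -0.02. The share called, 35 of 57, was again near the 62.0% of all genes.

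Among the other Bcl2 family genes, the leukocyte-expressed Bcl2a1b was at 0 in every WT library and had 14.6, 17.7 and 13.3 counts in KO, at least 5.52-fold above a floor of 3 counts per library. Its near-identical copies Bcl2a1a and Bcl2a1d had too few counts for a test, all 3 copies may share reads, and the rise stood beside that of the leukocyte markers. Bcl2l2 (Bcl-w), another protective member, fell slightly (log2 fold change -0.37, adjusted p = 0.00592, edgeR), and Bcl2l10 stayed at or under 3 counts.

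Of the further effector, BH3-only and related genes 2 were higher, 6 lower and 2 not called of 10 tested. Pmaip1 (Noxa), which binds Mcl1 protein, had 2.08, 6 and 6 counts in the WT libraries against 83, 140 and 157 in the KO libraries, a log2 fold change of 4.83 ± 0.413 (SE, edgeR adjusted p = 2.8e-05). Its WT counts were near the floor of 3 counts, so the size of the change is poorly defined. It lay between 1.58 and 5.07 over the alternative fits. Bnip3, a mitophagy receptor induced by low oxygen, had 47, 113 and 46 counts in the WT libraries against 903, 610 and 1232 in the KO libraries, a log2 fold change of 3.84 ± 0.386 (SE, edgeR adjusted p = 6.33e-05). Like Bbc3, both were well above WT in every KO library. By contrast Bok, Bik, Bcl2l11 (Bim) and Bmf fell (log2 fold changes -1.02, -0.73, -0.74 and -0.78, with overlapping groups for Bmf), as did Bcl2l13 (-1.15) and Bcl2l14 (-1.81). Hrk stayed at or under 3 counts.

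Downstream of the mitochondria, Casp9, the initiator caspase of the apoptosome, had 1123, 1043 and 1004 counts in the WT libraries against 304, 319 and 302 in the KO libraries, a log2 fold change of -1.67 ± 0.091 (SE, edgeR adjusted p = 2.73e-06). The groups were far apart, and the call held in all 17 alternative fits. Cycs, which encodes cytochrome c, was higher (log2 fold change 1.06) and so was Endog (0.88). Apaf1, Casp6 and Aifm1 were not called. Endog lost its call with the length correction (adjusted p = 0.0567, edgeR).

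Of 3 tested antagonists of IAPs 2 were lower and 1 was not called. Htra2 fell by 0.71 and Xaf1, an interferon-induced binder of Xiap, by 1.27 on the log2 scale, and Diablo (Smac) was not called (log2 fold change 0.06, adjusted p = 0.645, edgeR). Of the other IAP genes, Birc5 (survivin), which is made in dividing cells, rose by 1.16 on the log2 scale beside the proliferation genes. Naip2 fell by 1.41, and Birc6, Naip1 and Naip5 were not called, and the Naip copies may share reads.

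In the death receptor branch 3 genes were higher, 3 lower and 4 not called of 10. Traf1 had 3, 3.67 and 7.02 counts in the WT libraries against 20.2, 22.1 and 31.9 in the KO libraries (log2 fold change 2.48 ± 0.413, SE, edgeR adjusted p = 9.85e-04), and the leukocyte markers rose beside it. Its WT counts were near the floor of 3 counts, and on the log2(FPKM + 1) scale the change was 0.47. The adaptor gene Fadd was lower (-0.65). Fas (1.23) and Tnfrsf1a (0.36) were higher, but lost their calls in 3 of 16 and 9 of 17 alternative fits, Fas among them without KO replicate 1 or 2. Cflar, Casp8, Ripk1 and Tradd were not called.

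Of 8 genes of p53 and its targets 3 were higher, 1 lower and 4 not called. Trp53 itself rose by 0.57 on the log2 scale (SE 0.109, adjusted p = 0.00205, edgeR), and Zmat3 (0.96) and Perp (0.77), a desmosomal p53 target, were higher. Ccng1 was lower (-0.41), and that call was lost in 5 of 17 fits. Mdm2, Cdkn1a, Phlda3 and Sesn2 were not called. Of 11 genes of the mitochondrial pore and its regulators 5 were higher, among them Hax1 (0.86) and Mtch2 (0.55), 2 lower, Tmbim6 (-0.65) and Bag3 (-0.53), and 4 not called.

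**Figure D4:**
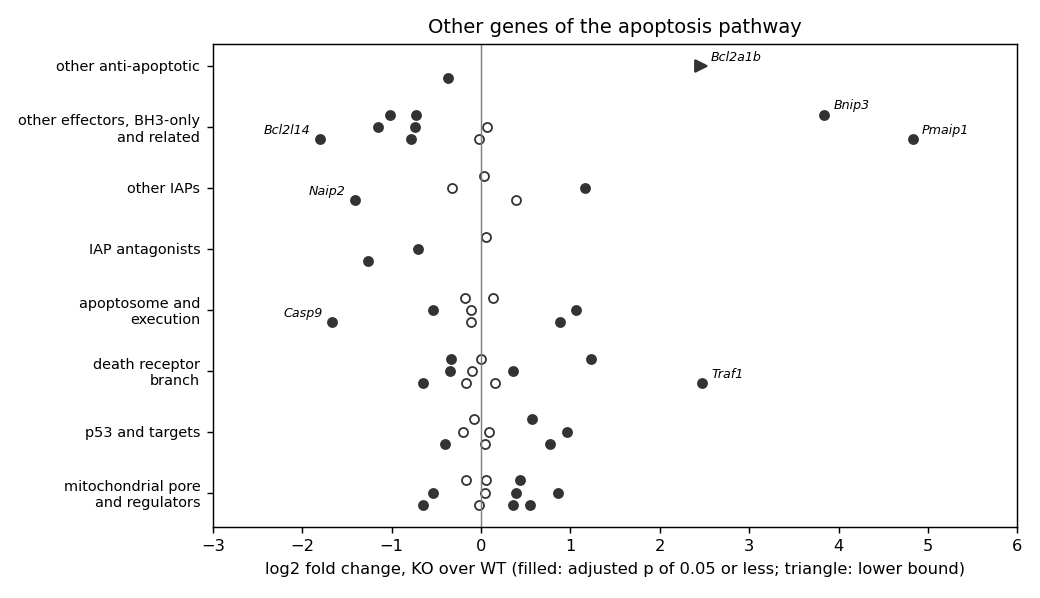
Log2 fold change (KO over WT) of the 57 tested genes of 8 further apoptosis lists, each point a gene, filled where the adjusted p was 0.05 or less; the triangle is the lower bound of Bcl2a1b. Points lie on both sides of 0 in most lists, with Pmaip1 at 4.83 and Bnip3 at 3.84 on the right and Bcl2l14 at -1.81 and Casp9 at -1.67 on the left.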

How the data were processed

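RNA of 6 separated corneal epithelia was sequenced as described in the report; the methods give Ribo-Zero depletion and BGISEQ sequencing of single-end reads, and the labels an Illumina library kit. The authors aligned reads with Bowtie2 2.2.5 and deposited RSEM 1.2.12 estimated counts, FPKM and TPM values per gene. The submitters' notes name mm9, but the table's coordinates are GRCm38, and positions and strands are from GENCODE. The authors also deposited fold changes and p-values of their own comparison, which were not used. Whether counting used strand is not given in the sources used here, so overlapping genes may share reads.

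Estimated counts were rounded and fitted with edgeR 4.0.16 in R 4.3.3 (TMM factors, filterByExpr, glmQLFit and glmQLFTest, no covariate besides genotype), and p-values were adjusted over 13305 genes by the Benjamini-Hochberg method. Standard errors are the absolute log2 fold change over the square root of F. CPM values are scaled by TMM factors. Limits of 3 counts cover counting error only. The methods describe independent biological samples. The alternatives were DESeq2 1.42.0, other scalings and filters, a robust fit, limma 3.58.1 on log2(FPKM + 1) and log2(FPKM + 0.1), a loess length correction, a replicate block and leaving out each library. All 10 genes were named, with up to 4 genes of largest change per list and, of genes at or under 3 counts, the name. Further list members were named after their values were seen. The genes and lists were chosen with earlier results of these data known. Kera, Cdh5, Emcn and Birc7 were not analysed here, and the values of some list genes are not reported here. The fit was tested on simulated data. Python 3.11.15, pandas 2.3.3, numpy 2.4.6 and matplotlib 3.10.9 were used.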

Additional observations from a re-analysis of the deposited data

How the results depend on the processing

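The number of the 10 genes called, 7, lay between 4 and 7 when each library was left out, with 4 without WT replicate 3, where Bcl2l1, Bid and Birc2 were lost, and 5 without WT replicate 1. The number called lower, 5, lay between 2 and 5 in these fits. Calls over all genes fell too. They were 4100 higher and 3557 lower without WT replicate 3, and 3870 and 3412 without WT replicate 1, beside 4231 and 4022 with all libraries. Of the other alternatives, the filter at a mean count of at least 50 left 1 gene called higher, because Bbc3 was not tested there. The calls of Bcl2, Xiap and Bbc3 held in every fit that kept the gene. Of the 10 genes and the 29 list genes examined one by one under the alternatives, 3 changed sign, all near 0. Other named list genes were not examined in this way. Mcl1 had a log2 fold change of -0.016 with total counts only and -0.019 on both FPKM scales. Bak1 lay between -0.11 and 0.029 when each library was left out, and was above 0 without WT replicate 2 or 3 or KO replicate 1 or 2. Diablo had -0.037 with total counts only, -0.042 on the log2(FPKM + 1) scale, -0.044 on the log2(FPKM + 0.1) scale and -0.012 with the length correction, and lay between -0.0043 (without KO replicate 2) and 0.12 when each library was left out. Total counts without composition factors moved the median of all genes by -0.09 on the log2 scale. The split of all calls was then 3709 higher and 4630 lower, beside 4231 and 4022 with TMM. It was 3740 and 4642 on the log2(FPKM + 1) scale. The titles number the libraries 1 to 3 in each genotype, and no source used here links same-numbered libraries. The deviations of same-numbered libraries correlated at 0.03, -0.01 and 0.06, within the range of differently numbered ones (-0.159 to 0.123). With 3 libraries per genotype this cannot show whether the numbers pair them. With the replicate block 6 of the 10 genes were called, Bid being lost (adjusted p = 0.0525, edgeR), and 34 of the 57 genes of the other lists, beside 35 without it. Of all genes, 4149 were higher and 3934 lower with the block. By TPM in place of FPKM the order of the 10 genes was the same in both genotypes, but Bcl2l1 and Bak1 no longer overlapped in either. Depth limited Bbc3 most among the 10 genes, with at most 16 counts in a WT library.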
